A study of Rattus norvegicus with 20 samples.

Results

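The 20 nucleus accumbens libraries of the study were divided by the measured level of Slc17a7, the vesicular glutamate transporter that cortical, hippocampal and amygdalar excitatory neurons use. A library counted as high where the Slc17a7 count divided by the library total, times 1000000 (CPM), was 150 or more, and as low where it was below 150. This gave 11 high libraries and 9 low libraries of 20 in all. The classes come from a measured value and are not groups of the study, and Slc17a7 itself is left out of every result.

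The study profiled RNA of the nucleus accumbens, a ventral striatal part of the reward circuit, in male wild-type Sprague-Dawley rats that self-administered cocaine. The rats were 7 to 9 weeks old, were housed 2 to a cage and drank 1 of 4 solutions freely. Abx_SCFA rats (n = 5) drank antibiotics together with short-chain fatty acids, SCFA rats (n = 6) the fatty acids alone, Abx rats (n = 4) the antibiotics alone and H2O rats (n = 5) water. All rats share the cocaine exposure, so no library of a cocaine-naive rat is among them. Cage mates are not named in the labels, and p-values measure only the spread between these libraries. The SCFA and Abx_SCFA rats carry numbers from 400 and the H2O and Abx rats numbers below 400, so the series of rat numbers and the fatty acids cannot be told apart.

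The accumbens consists mainly of medium spiny neurons, which release GABA, and of smaller numbers of cholinergic and GABAergic interneurons. It receives glutamatergic axons from cortex, hippocampus, amygdala and thalamus, whose cell bodies, and so most of whose mRNA, lie outside it. Cortical and other pallial excitatory neurons are defined by transcription factors such as Tbr1, Neurod2, Neurod6 and Fezf2 and load their vesicles through Slc17a7. In bulk tissue, fewer cells of a type and less RNA per cell cannot be told apart.

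Slc17a7 ran over a wide range without a gap at the threshold. Among the high libraries it was 1045 CPM in SCFA 5, 700.3 in SCFA 2, 505 in Abx 1, 461 in Abx 4, 406.9 in SCFA 6 and 329 in Abx_SCFA 4. The remaining high libraries held 252 CPM in H2O 5, 219 in Abx_SCFA 5, 198 in Abx_SCFA 2, 184 in Abx 3 and 155 in Abx_SCFA 3. Among the low libraries it was 135 CPM in SCFA 3, 132 in Abx_SCFA 1, 81.4 in SCFA 4, 74.1 in SCFA 1, 44.3 in Abx 2, 31.8 in H2O 2, 14.6 in H2O 4, 3.29 in H2O 1 and 3.07 in H2O 3. Abx_SCFA 3 lies just inside the threshold and SCFA 3 just outside it. The classes were unevenly spread over treatments, with 4 of 5 Abx_SCFA, 3 of 6 SCFA, 3 of 4 Abx and 1 of 5 H2O libraries high, and treatment therefore entered the fit as a covariate.

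**Figure D1:**
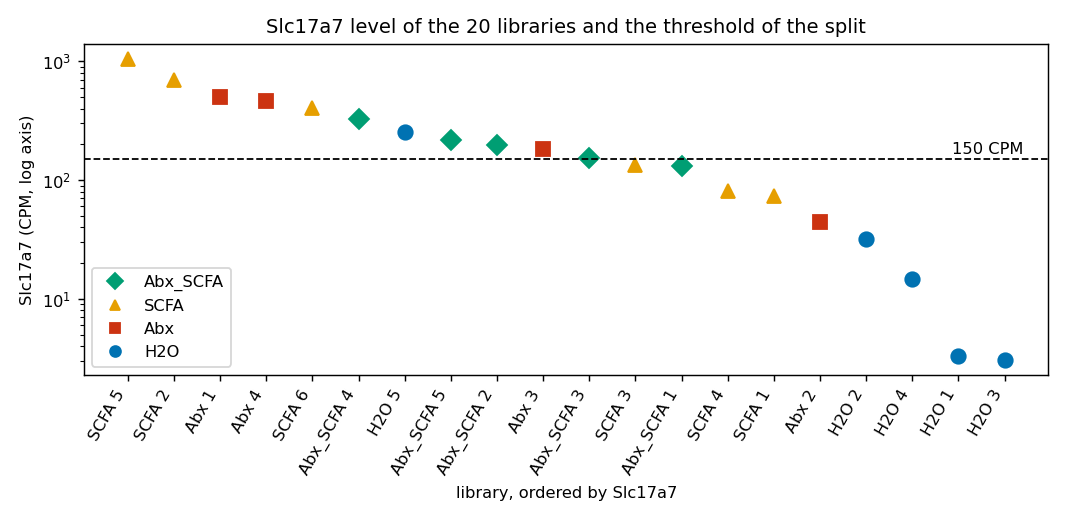
Slc17a7 level (CPM, log axis) of each of the 20 libraries, ordered from highest to lowest, with the treatment as colour and shape and the 150 CPM threshold as a dashed line. The 2 highest libraries are SCFA 5 and SCFA 2, and the 4 lowest are H2O libraries.

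The high libraries held 17525358 to 25731636 counts and the low libraries 18223766 to 23486029. Medium spiny neuron markers were abundant in all 20 libraries: the dopamine receptor gene Drd1 had between 168 and 463 CPM in high libraries and between 299.9 and 496 CPM in low libraries. Transthyretin (Ttr), the defining transcript of choroid plexus, was at most 0.263 CPM in any library. Cend1, a neuronal cell cycle exit gene, was at 0.192 to 0.557 CPM in the 6 SCFA libraries, H2O 4 and Abx_SCFA 5 and at 4.83 to 9.59 CPM in the other 12 libraries, so that 2 libraries stood apart from their own groups. Counts are given below also without these 2 libraries. No pair of libraries agreed within sampling noise.

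Of the other marker genes of the division, Neurod6, a transcription factor of pallial excitatory neurons, followed it and Fezf2, a transcription factor of deep-layer projection neurons, followed it only in part. Neurod6 had a lowest, median and highest level of 7.94, 20.6 and 40.3 CPM in high libraries and of 0.418, 3.07 and 8.77 CPM in low libraries. Only the lowest high library, Abx_SCFA 3, fell below the highest low library, SCFA 3. Fezf2 was at 5.59, 7.84 and 38.9 CPM in high libraries and at 4.32, 5.95 and 7.93 CPM in low libraries. In 5 high libraries the level lay above every low library and the others overlapped the low range, Abx 3 and Abx 4 with 5.59 and 5.71 CPM among them. SCFA 5, the library with the most Slc17a7, had the highest level of the 20 libraries. The low library Abx 2, at 5.95 CPM, lay above Abx 3 and Abx 4 and below Abx 1. The log2 fold change of 0.996 ± 0.26 did not pass without SCFA 1, SCFA 3 or SCFA 4 (0.89, 0.95 and 0.93, adjusted p = 0.0848, 0.0811 and 0.0814). In separate fits, Fezf2 differed by 0.40 ± 0.26 in rats numbered below 400 and by 1.38 ± 0.33 in rats numbered from 400.

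The promoters of the 2 neurogenic factors are shown because Neurod6 is a marker of the division, because both genes kept close proportions to Tbr1 among the high libraries and because Neurod proteins are known to bind E-boxes of the form CAGATG. Each run is 5′ to 3′ on the gene's strand, from 250 bases before to 50 bases after the annotated start, from RefSeq (GRCr8, not the build of the deposited counts), with CAGATG, its reverse complement included in the search, in capitals. Neurod6 lies at chr4:86180106-86180405 (minus strand) and Neurod2 at chr10:83824228-83824527 (minus strand).
Neurod6: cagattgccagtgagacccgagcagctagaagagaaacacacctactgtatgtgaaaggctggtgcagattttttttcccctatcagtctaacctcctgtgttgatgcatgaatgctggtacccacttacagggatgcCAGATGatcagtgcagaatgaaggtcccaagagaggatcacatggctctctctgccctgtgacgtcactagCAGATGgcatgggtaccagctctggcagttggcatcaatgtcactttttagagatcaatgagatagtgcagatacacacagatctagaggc
Neurod2: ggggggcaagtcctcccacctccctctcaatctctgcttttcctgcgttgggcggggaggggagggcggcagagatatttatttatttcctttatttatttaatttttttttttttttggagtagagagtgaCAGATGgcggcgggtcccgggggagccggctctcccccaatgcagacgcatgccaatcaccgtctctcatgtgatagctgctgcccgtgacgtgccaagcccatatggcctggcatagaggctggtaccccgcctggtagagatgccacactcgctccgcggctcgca
The Neurod6 window holds the motif 112 and 41 bases before the start and the Neurod2 window 118 bases before it. The same windows of Tbr1 and Fezf2 hold none. Among all promoters of the table, 16.63% hold the motif on either strand. The share was 11.93% of 486 promoters of the genes higher in high libraries, 9.91% of 111 promoters of the genes lower in them and 11.19% of 10356 promoters of all genes in the test, matched by symbol.

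Across 12845 genes, edgeR's quasi-likelihood test with treatment as covariate called 736 genes at a Benjamini-Hochberg adjusted p below 0.05, or 5.73%. Of these, 603 (4.69%) were higher in high libraries and 133 (1.04%) were lower. The higher genes moved further: their median log2 fold change was 0.67, with 177 above 1 and 43 above 2, while that of the lower genes was -0.32, with 4 below -1. Over all genes in the test the median was -0.01. Since the libraries were divided by 1 transcript of excitatory neurons, the p-values say which genes varied with it among these 20 libraries, and genes of the same neurons are given below as a description. Without SCFA 2 and SCFA 5, the 2 libraries with the most Slc17a7, 233 genes were higher and 23 lower, and all 233 were among the 603. Without H2O 4 and Abx_SCFA 5 the counts were 504 and 102.

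Both number series, which enter the fit together, gave the 603 and the 133 genes the same sign. In rats numbered from 400, a fit of its own called 322 genes higher and 143 lower, of which 225 and 21 were among those of all 20 libraries. In rats numbered below 400, where 4 high libraries stand against 5 low ones, it called 79 higher and 19 lower, of which 73 and 7 were shared.

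Levels of 46 genes (0.358%) lay above every low library in every high library, and those of 1 gene (0.00779%) lay below. The single gene was Decr1, a mitochondrial reductase of fatty acid oxidation, named after its values were seen, with a log2 fold change of -0.21 ± 0.06 (SE, adjusted p = 0.0320). Among the 46 were Tbr1, Cck, Nptx1, Hes1, Basp1, Cyp26a1, Rtn4r, Stx1a, Gabbr2 and Kcnc2.

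Pallial excitatory neuron genes were among those with the largest fold changes. Of 20 genes measured from a list common to cortical excitatory neurons, 12 were called higher and 0 lower, with a median log2 fold change of 1.23, against -0.01 over all genes. The shares called over all genes were 4.69% higher and 1.04% lower. The number called was 10 without SCFA 2 and 5 and 4 in rats numbered below 400. Those settings called 233 and 79 of all 12845 genes higher. Tbr1, a T-box factor of deep-layer and other early-born pallial neurons, was at 25.4, 50.1 and 138 CPM (lowest, median, highest) in high libraries and at 0.384, 8.01 and 22.9 CPM in low libraries, without overlap. Its log2 fold change was 2.47 ± 0.34 (SE). Neurod2 differed by 2.54 ± 0.38, Neurod1, at 8.203 CPM or less in every library, by 2.59 ± 0.57 and Slc17a6, the vesicular glutamate transporter of thalamic and some pallial neurons, by 2.01 ± 0.44. Nptx1, a pentraxin that gathers AMPA receptors at synapses, ran from 111 to 579 CPM in high libraries and from 30.7 to 108 CPM in low libraries. Camk2a and Nrgn, which medium spiny neurons also express in quantity, differed by 0.03 ± 0.09 and 0.38 ± 0.18 and were not called (adjusted p = 0.896 and 0.237).

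**Figure D2:**
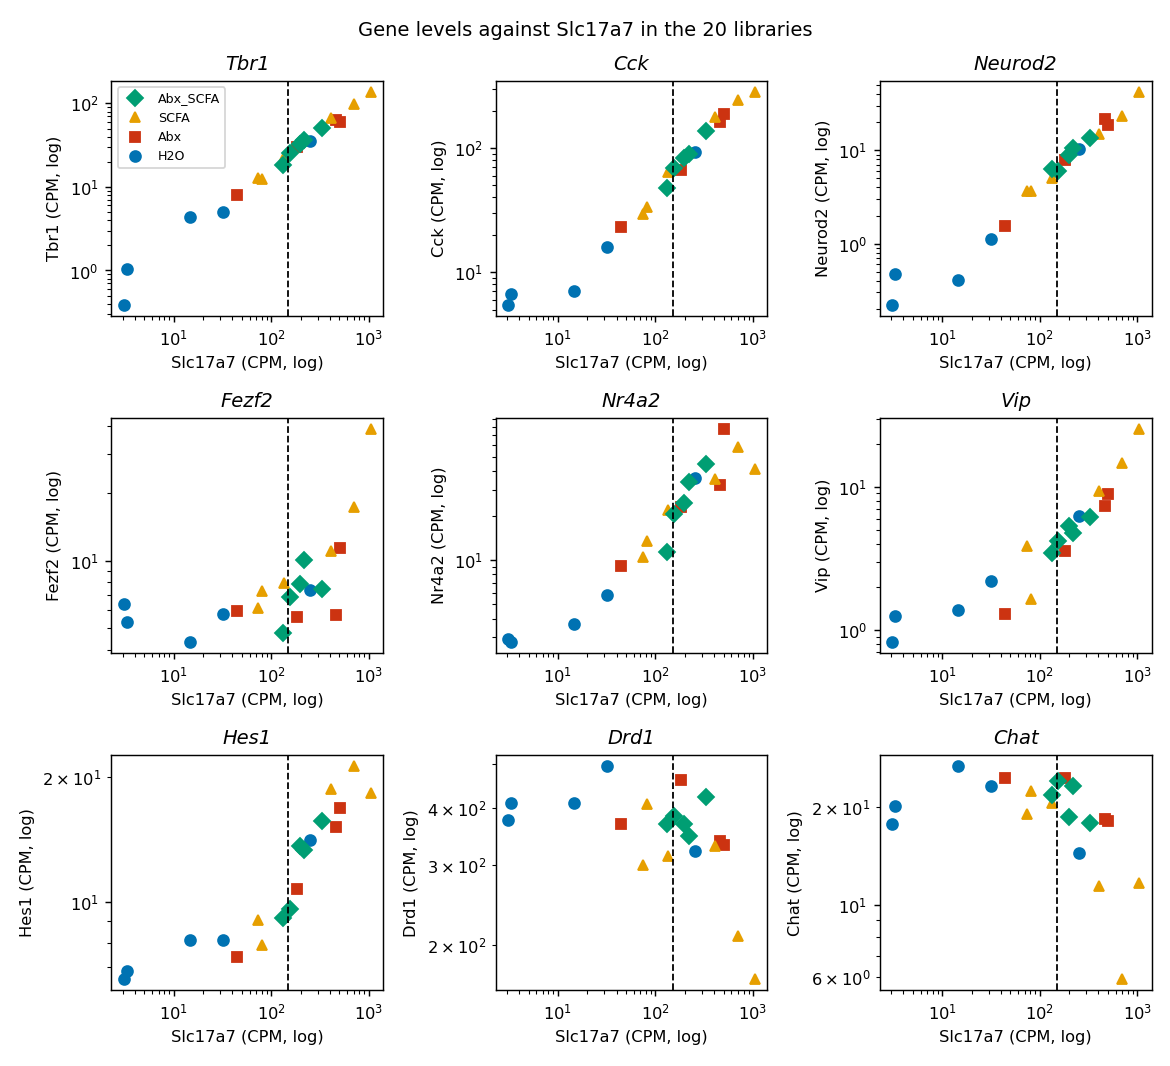
Levels of 9 genes (CPM) against Slc17a7 (CPM) in the 20 libraries, both on log axes, with the treatment as colour and shape and the 150 CPM threshold as a dashed line. Tbr1 and Cck rise over the whole range, Fezf2 is highest in SCFA 5 and SCFA 2, with Abx 1, SCFA 6 and Abx_SCFA 5 also above every low library, and Drd1 and Chat are lowest in libraries with much Slc17a7.

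Genes of single cortical layers and of neighbouring pallial areas differed less evenly. Their counts stand beside shares of 4.69% called higher and 1.04% called lower over all genes. Of 20 deep-layer genes 7 were called higher, among them Cplx3, a complexin of subplate-derived neurons (2.18 ± 0.29), Sox5 (0.74 ± 0.13), Ctgf, a subplate marker (0.68 ± 0.13), and Tox (0.68 ± 0.14), and the median of the list was 0.12. Without SCFA 2 and 5 the number called was 4, where 233 of all 12845 genes were higher. Tle4, a corepressor of corticothalamic neurons, was at 141 to 205 CPM in high libraries and 174 to 239 CPM in low libraries (-0.08 ± 0.07, adjusted p = 0.583). It was thus abundant also where Slc17a7 was low. The deep-layer list shares Foxp2 and Bcl11b with the list of medium spiny neuron genes. The list median therefore includes genes that both lists hold. Which cells the Tle4 counts come from was not tested. Of 18 upper-layer genes only Plcxd2 was called (1.33 ± 0.28), with a list median of 0.21. A count of 1 here is near the share over all genes and is given as a description. Cux2, an upper-layer homeobox factor, differed by 0.51 ± 0.21 (adjusted p = 0.166) and passed without Abx_SCFA 1 (0.81, adjusted p = 0.0133). Cux2 passed in 3 of the 32 settings run. Rorb, a layer 4 receptor, was at 10.4 to 21.1 CPM in high libraries and 10.4 to 15.1 CPM in low libraries and was not called (adjusted p = 0.329).

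Claustral and insular genes were called higher in 4 of 9 cases, with a median of 0.36. Beside this and the next lists stand 4.69% called higher and 1.04% called lower over all genes. Nr4a2, an orphan nuclear receptor that marks claustrum and layer 6b, was at 20.6, 35.2 and 77.6 CPM in high libraries and at 2.77, 9.06 and 21.7 CPM in low libraries. In 10 high libraries it exceeded every low library, and the log2 fold change was 2.03 ± 0.29. Ntng2, an axonal netrin G protein, differed by 1.19 ± 0.21, Slit1, a repulsive guidance cue, by 0.83 ± 0.17 and Gng2, a G protein subunit, by 0.71 ± 0.13. From the 8 genes of amygdala and lateral pallium, Rspo2, a Wnt agonist (2.91 ± 0.59), Adamts2, a procollagen peptidase (1.96 ± 0.28), and Mpped1 (0.56 ± 0.10) were called higher and Dlk1 lower. From the 6 piriform and olfactory genes, Nrp2, a semaphorin receptor (1.12 ± 0.23), and Cdhr1 (0.52 ± 0.14) were called. Cdhr1 lost its call without SCFA 1, 2, 3, 4 or 5, with values from 0.44 to 0.47 and adjusted p from 0.0659 to 0.101. Hippocampal genes were called higher in 0 of 9 cases and lower in 2, Wfs1 and Pdzd2, with a median of -0.14. Pdzd2 (-0.36 ± 0.09, adjusted p = 0.0166) was not called without H2O 5 or Abx 2 (-0.32 and -0.35, adjusted p = 0.0549 and 0.0510).

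**Figure D3:**
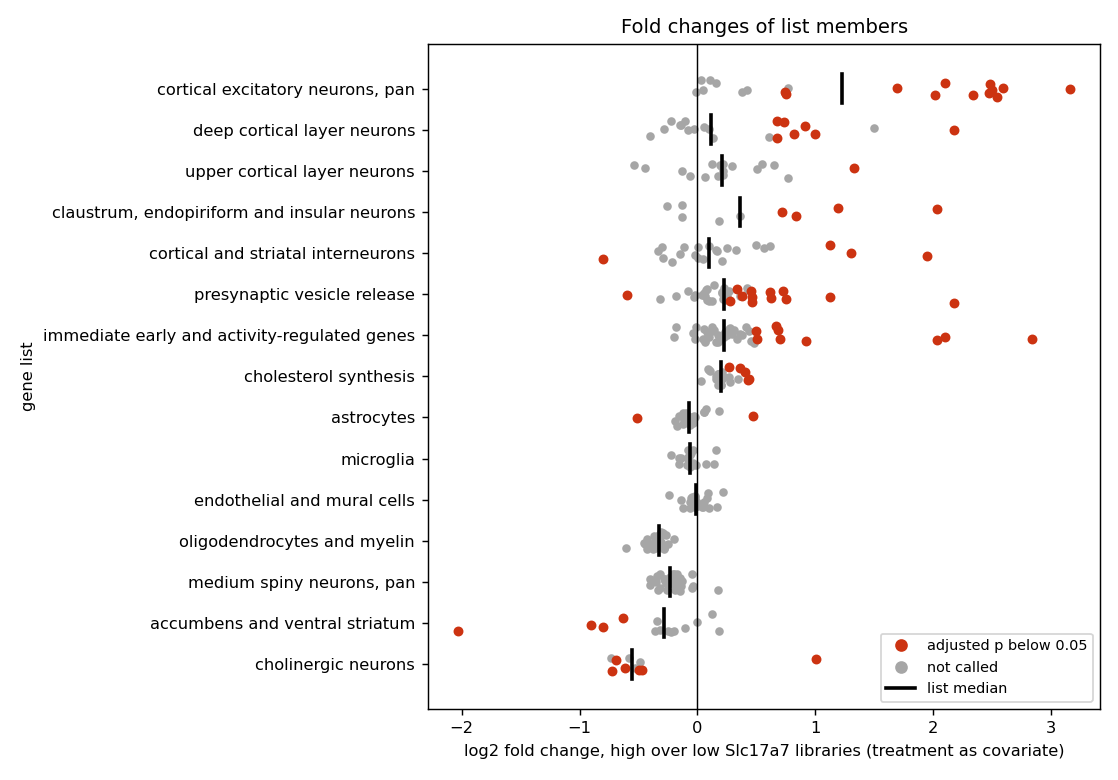
Log2 fold change, high over low Slc17a7 libraries, of each measured member of 15 gene lists, with called genes (adjusted p below 0.05) in red, others in grey and the list median as a bar. Genes common to cortical excitatory neurons lie mostly above 0 and cholinergic genes mostly below 0. No gene of the general medium spiny neuron list, which includes Penk, Pdyn and Tac1, and no myelin gene was called. Of all genes, 5.73% were called.

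Among the high libraries, the ratios of pallial genes to Tbr1 also differed, for some genes more than for others. Relative to Tbr1 in the same library, Cck varied over the 11 high libraries by a factor of 1.52 between the lowest and the highest ratio, Neurod2 by 1.52, Neurod6 by 1.59 and Nptx1 by 1.77. These genes kept close proportions to Tbr1 while Slc17a7 spanned 155 to 1045 CPM. So did Vip, an interneuron gene, which varied by 1.595, and close proportions were thus not particular to excitatory neuron genes. Cux2 varied by 2.01. Rspo2 varied by a factor of 9.40, Nr4a2 by 4.33, Slc17a6 by 3.24, Fezf2 by 3.14 and Bdnf by 3.08. Abx 4 had the lowest ratio of Fezf2, Rspo2 and Bdnf to Tbr1, and Abx 1 had the highest of Rspo2, Nr4a2 and Bdnf. The ratio of Nr4a2 was lowest in SCFA 5, at 0.298, and highest in Abx 1, at 1.29. Rspo2 rests on as few as 17 counts in a library and Slc17a6 on 43. Fezf2 was at 5.33 and 6.42 CPM in H2O 1 and H2O 3, the libraries with the least Slc17a7. No such background was subtracted from the ratios. How much of the spread of a ratio comes from cells other than pallial neurons was not tested. The set of genes and Tbr1 as denominator were chosen after their values were seen.

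**Figure D4:**
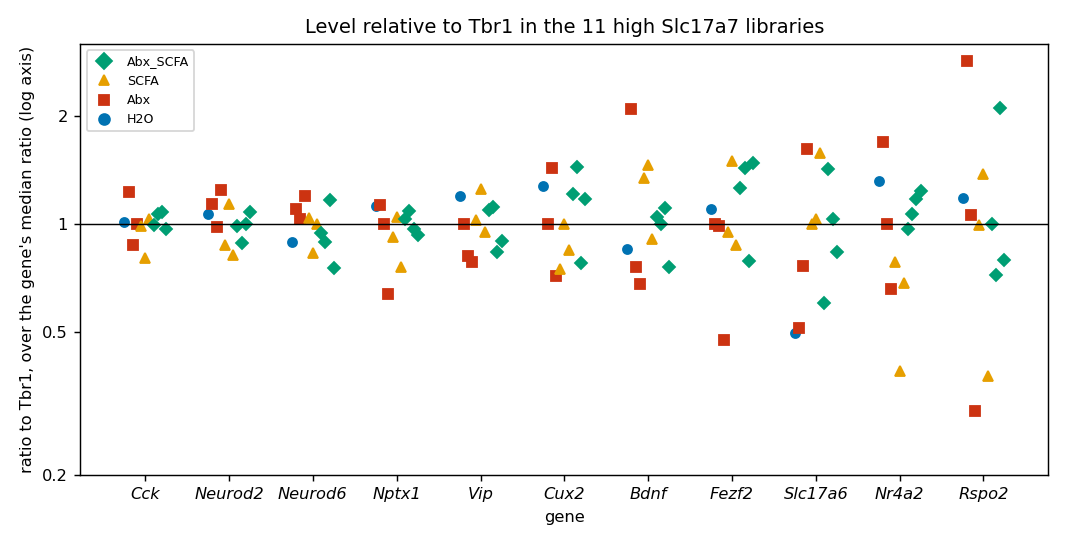
Ratio of each gene's CPM to that of Tbr1 in the 11 high libraries, divided by the gene's median ratio, on a log axis, with the treatment as colour and shape. Cck, Neurod2, Neurod6 and Vip stay near 1 in every library, while Rspo2 spreads widely, with Abx 4 low and Abx 1 high.

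The 12 higher genes with the smallest p were Bmper, Hes1, Nxph3, Cyp26a1, Npsr1, Myh3, Cck, Tp53i11, Hs3st2, Basp1, Cplx3 and Prph, of which Cck and Cplx3 belong to the excitatory neuron lists. Hes1, a repressor downstream of Notch that glia and progenitors express, was at 9.64, 15.1 and 21.2 CPM in high libraries and at 6.53, 8.11 and 9.30 CPM in low libraries, without overlap (0.93 ± 0.11, adjusted p = 0.000528). Separation within each treatment follows from this and adds no further result. High libraries before low ones, the levels were 9.64 to 15.6 against 9.15 CPM in Abx_SCFA and 18.3 to 21.2 against 7.88 to 9.30 CPM in SCFA. They were 10.7 to 16.9 against 7.38 CPM in Abx and 14.1 against 6.53 to 8.14 CPM in H2O. Basp1, a growth cone protein, ran from 197 to 414.6 CPM in high libraries and from 110 to 187 CPM in low libraries (0.87 ± 0.12, adjusted p = 0.000595). Cyp26a1, which degrades retinoic acid, was near 1 CPM: 1.13 to 4.30 in high libraries and 0.1097 to 0.911 in low libraries (2.02 ± 0.27, adjusted p = 0.000595). Npsr1, the neuropeptide S receptor, differed by 2.56 ± 0.33 and Bmper, a BMP regulator, by 1.89 ± 0.22, and 9 high libraries exceeded all low libraries in both. Rtn4r, the Nogo receptor, was at 6.24 to 54.6 CPM in high libraries and 0.261 to 4.46 CPM in low libraries (2.65 ± 0.39, adjusted p = 0.000771), without overlap.

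Of 23 interneuron genes measured, 3 were called higher and 1 lower, with a median of 0.09, where the shares over all genes were 4.69% and 1.04%. Counts this small are given as a description. With continuous Slc17a7 they were 5 and 4, and without SCFA 2 and 5 they were 2 and 0. For all 12845 genes these fits gave 971 and 375, and 233 and 23. Vip, the peptide of a cortical interneuron class, was at 3.60, 6.26 and 25.4 CPM in high libraries and at 0.823, 1.66 and 3.88 CPM in low libraries. In 10 high libraries it exceeded every low library (1.94 ± 0.30, adjusted p = 0.00114). Kcnc2, a fast potassium channel, differed by 1.12 ± 0.21 without overlap (adjusted p = 0.00387) and Cort, the peptide cortistatin, by 1.30 ± 0.32 (adjusted p = 0.0174). Cort was not called without Abx 2, SCFA 1 or SCFA 4 (1.28, 1.18 and 1.11, adjusted p = 0.0509, 0.0583 and 0.0517). Sst, the somatostatin of interneurons found in both cortex and striatum, was at 91.5 to 137 CPM in high libraries and 102 to 143 CPM in low libraries, with a fold change of 0.0003 ± 0.10 that took either sign among the settings run. Pvalb, the calcium buffer of fast-spiking cells, differed by 0.57 ± 0.21 (adjusted p = 0.134), and passed only without H2O 5 (0.77, adjusted p = 0.0326). Gad1, which makes GABA, did not pass (-0.15 ± 0.09, adjusted p = 0.334).

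Activity-regulated and synaptic lists are to be read against the whole test, where 4.69% of genes were higher and 1.04% lower, with a median of -0.01. Of 44 activity-regulated genes 9 were called higher and 0 lower, with a median of 0.23. The number called higher was 4 without SCFA 2 and 5, 1 in rats numbered below 400 and 18 with continuous Slc17a7. Those settings called 233, 79 and 971 of all 12845 genes higher. Bdnf, the neurotrophin that cortical axons carry to striatum, was at 4.57, 8.67 and 40.5 CPM in high libraries and at 0.104, 1.29 and 4.73 CPM in low libraries. Only Abx 3 fell below the highest low library, SCFA 3 (2.84 ± 0.47, adjusted p = 0.00199). Nrn1, neuritin, differed by 2.10 ± 0.32 and Nptx2 by 0.92 ± 0.19 (adjusted p = 0.00106 and 0.00798). Fos (0.48 ± 0.17), Egr1 (0.36 ± 0.13) and Arc (0.45 ± 0.16), the transcripts that rise fastest after neuronal firing, were not called, with adjusted p of 0.107, 0.121 and 0.121. Fos passed without Abx 3 (0.52, adjusted p = 0.0486) and Arc without Abx_SCFA 1 (0.67, adjusted p = 0.0140). Among the 32 settings run, these leave-outs included, Fos passed in 5, Arc in 4 and Egr1 in 2. Nr4a2, Nrn1 and Bdnf are also genes of pallial neurons, and the part of those neurons in the count was not tested.

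Among 37 genes of vesicle release 12 were called higher and 1 lower, with a median of 0.23, where the shares over all genes were 4.69% and 1.04%. Cplx3 and Sv2b, of the 12, are also called members of the excitatory neuron lists. Without SCFA 2 and 5 the counts were 4 and 1, against 233 and 23 of all 12845 genes. Stx1a, a plasma membrane SNARE, ran from 70.9 to 236 CPM in high libraries and from 39.0 to 68.1 CPM in low libraries (1.12 ± 0.18, adjusted p = 0.00177). Rims1, an active zone scaffold, differed by 0.73 ± 0.15 (adjusted p = 0.00740). The single lower gene was Unc13c, a priming factor best known from cerebellum, at 69.2, 118 and 171 CPM in high libraries and 151, 171 and 222 CPM in low libraries (-0.59 ± 0.12, adjusted p = 0.00648). Of 17 GABA receptor genes 3 were called higher, led by Gabbr2, a GABA-B subunit (0.97 ± 0.18, adjusted p = 0.00487), and of 35 voltage-gated potassium channels 4, with Kcns1 at 1.70 ± 0.39 and Kcnc4 at 0.93 ± 0.17 (adjusted p = 0.0138 and 0.00387). The potassium channel count was 2 without SCFA 2 and 5, 0 in rats numbered below 400 and 8 with high at 250 CPM or more. Those settings called 233, 79 and 883 of all 12845 genes higher. Kcns3, another of the 4 (0.95 ± 0.28, adjusted p = 0.0493), was not called without H2O 1, 3, 4 or 5, Abx 1, 2 or 4, SCFA 1, 2, 3, 4 or 5, or Abx_SCFA 2, 4 or 5 (0.66 to 1.05, adjusted p from 0.0560 to 0.129). With so few calls per list, the receptor and channel counts are given as a description. Htr1a, a serotonin receptor of pyramidal cells, was the called 1 of 11 serotonin receptors (1.97 ± 0.35, adjusted p = 0.00290). Of 18 ionotropic glutamate receptor genes 2 were called higher, with a median of -0.02. Tnc, an extracellular matrix glycoprotein, was the called 1 of 16 perineuronal net and matrix genes (1.06 ± 0.21, adjusted p = 0.00570). Beside 4.69% called higher over all genes, a count of 1 of 16 is given as a description.

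All 24 cholesterol synthesis genes had positive fold changes, of which 5 were called, with a median of 0.20. Over all genes 4.69% were called higher, 5908 of 12845 fold changes were positive and the median was -0.01. Hmgcs1, an early enzyme of the pathway, was at 215, 314 and 407.3 CPM in high libraries and at 206, 228 and 272 CPM in low libraries. In 7 high libraries it exceeded every low library. Hmgcs1 differed by 0.43 ± 0.11 and Acat2 by 0.44 ± 0.10 (adjusted p = 0.0182 and 0.0133). Both calls ended without Abx 2 (0.41 and 0.36, adjusted p = 0.0588 and 0.0593), and that of Hmgcs1 also without H2O 5 (0.40, adjusted p = 0.0556). Mvd, a decarboxylase of the pathway and another of the 5 (0.26 ± 0.07, adjusted p = 0.0352), was not called without H2O 5, Abx 1, Abx 2, SCFA 1, SCFA 3, SCFA 4 or SCFA 5 (0.18 to 0.28, adjusted p from 0.0504 to 0.156). The count was 20 with high at 250 CPM or more, and 0 without SCFA 2 and 5 or in rats numbered below 400. Those settings called 883, 233 and 79 of all 12845 genes higher, so the counts of 0 are given as a description. Of the 24, 22 kept a positive sign in rats numbered from 400 against all 24 in rats numbered below 400.

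Genes lower in high libraries were fewer and their changes smaller. The 12 with the smallest p were Fat1, Scn9a, Lmo1, Rps6ka6, Tec, Gdpd2, Mpp5, Fmo1, Chrm5, Heph, Klf5 and Cpne2. Fat1, an atypical cadherin, had the smallest p at 204, 220 and 251 CPM in high libraries and 236, 271 and 297 CPM in low libraries (-0.28 ± 0.05, adjusted p = 0.00169). Scn9a, the sodium channel Nav1.7, was at 12.04, 16.8 and 20.2 CPM in high libraries and at 19.9, 23.8 and 28.0 CPM in low libraries. In 10 of the 11 high libraries it lay below every low library (-0.56 ± 0.10, adjusted p = 0.00181). Fmo1, a flavin monooxygenase, differed by -0.92 ± 0.18 and Chrm5, the M5 muscarinic receptor of dopamine neurons and other cells, by -0.83 ± 0.17 (adjusted p = 0.00636 for both).

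Cholinergic neuron genes were the list with the most members called lower: 5 of 10 were called lower and 1 higher, with a median of -0.56. Over all genes, 1.04% were called lower and 4.69% higher. Lhx8, the LIM factor that specifies these neurons, was at 3.79, 6.91 and 11.04 CPM in high libraries and at 8.10, 10.5 and 15.3 CPM in low libraries (-0.73 ± 0.15, adjusted p = 0.00711). Isl1, a LIM factor of cholinergic and D1 neurons, was at 1.92, 6.12 and 7.30 CPM in high libraries and at 6.14, 8.56 and 9.53 CPM in low libraries (-0.69 ± 0.15, adjusted p = 0.00860). In both, 6 high libraries lay below every low library. Chat, the enzyme that makes acetylcholine, was at 5.91, 18.02 and 24.5 CPM in high libraries and at 17.7, 21.7 and 26.6 CPM in low libraries (-0.61 ± 0.16, adjusted p = 0.0284), with SCFA 2, SCFA 6 and SCFA 5 lowest. Slc10a4, a vesicle transporter of cholinergic terminals, differed by -0.50 ± 0.11 (adjusted p = 0.0116), and Slc5a7, the choline transporter, named after its values were seen, by -0.47 ± 0.13 (adjusted p = 0.0410). Ngfr, a neurotrophin receptor of basal forebrain cholinergic neurons, went the other way (1.0045 ± 0.22, adjusted p = 0.00860). Leaving out H2O 5, SCFA 1, SCFA 3, SCFA 4 or SCFA 5 ended the call of Chat (-0.62 to -0.56, adjusted p from 0.0566 to 0.0651), and the call of Slc5a7 ended without H2O 1, H2O 4, H2O 5, Abx 1, Abx 4, SCFA 1, SCFA 2, SCFA 3, SCFA 4, SCFA 5, SCFA 6, Abx_SCFA 4 or Abx_SCFA 5 (-0.49 to -0.37, adjusted p from 0.0505 to 0.0975). Without SCFA 2 and 5, 1 of the 10 genes was called lower, and with high at 250 CPM or more it was 9. Those settings called 23 and 429 of all 12845 genes lower.

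Genes of the accumbens and ventral striatum were called lower in 4 of 14 cases and higher in 0, with a median of -0.29. For all lists of this paragraph, the shares over all genes were 1.04% lower and 4.69% higher. Calcr, the calcitonin receptor through which amylin acts, was at 1.06, 5.46 and 15.3 CPM in high libraries and at 3.41, 18.9 and 49.7 CPM in low libraries. The classes overlapped, and the fold change of -2.03 ± 0.46 was the lowest of all called genes (adjusted p = 0.0136). It was not called without Abx 2 (-1.997, adjusted p = 0.0549). By treatment, it was at 3.58 to 12.2 CPM in high and 18.9 CPM in low Abx_SCFA libraries, at 1.06 to 15.3 CPM in high and 33.5 CPM in low Abx libraries, and at 2.99 CPM in high and 12.2 to 49.7 CPM in low H2O libraries. In SCFA the classes overlapped, with 1.66 to 5.46 CPM in high and 3.41 to 16.1 CPM in low libraries. Wfs1, an endoplasmic reticulum protein abundant in ventral striatum and hippocampal CA1, was at 169.5, 293 and 420 CPM in high libraries and at 320.0, 491 and 613 CPM in low libraries (-0.63 ± 0.14, adjusted p = 0.0106). Dlk1 differed by -0.90 ± 0.21 and Tac3, the neurokinin B gene, by -0.80 ± 0.22 (adjusted p = 0.0147 and 0.0399). Dlk1 also counts among the amygdala and D1 genes called lower, Tac3 among interneuron genes and Wfs1 among hippocampal genes. Tac3 lost its call when H2O 1, H2O 5, Abx 2, SCFA 2, SCFA 3, SCFA 4, SCFA 5 or Abx_SCFA 5 was left out (-0.80 to -0.65, adjusted p from 0.0512 to 0.104). Without SCFA 2 and 5, 0 of the 14 were called, where 233 of all 12845 genes were higher and 23 lower. Genes of septum, pallidum and deep nuclei went both ways, with 4 of 13 higher and 2 lower. Kcnmb4, a potassium channel subunit, differed by 0.67 ± 0.10 and Zic2, a forebrain zinc finger factor, by 0.34 ± 0.06 (adjusted p = 0.000771 and 0.00390). Thalamic genes were called in 1 of 13 cases, Slc17a6, a count given as a description.

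**Figure D5:**
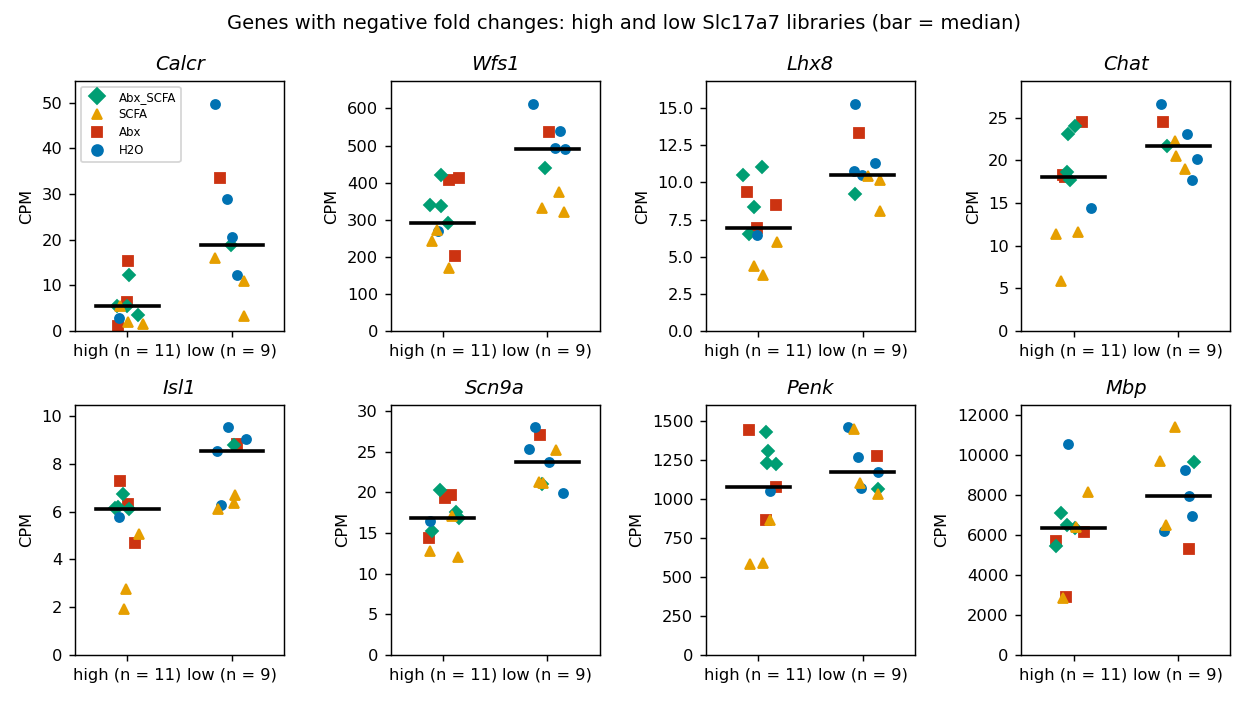
Levels (CPM, axes from 0) of 8 genes with negative fold changes in the 11 high libraries, left, and the 9 low libraries, right, with the treatment as colour and shape and the class median as a bar. Scn9a separates the classes almost fully, Calcr, Lhx8, Isl1 and Chat overlap, and Penk and Mbp, which were not called, overlap widely.

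Medium spiny neuron genes did not pass the test of high against low libraries. Of 32 measured genes 31 had a negative fold change, with a median of -0.23, and 0 were called in either direction. Among all 12845 genes 6937 were negative, 4.69% were called higher and 1.04% lower. A count of 0 among 32 is near the share called lower and is given as a description. Drd1 had a median of 339.7 CPM in high libraries and 377 CPM in low libraries (-0.28 ± 0.14, adjusted p = 0.246). Drd2, the D2 dopamine receptor, was at 110 to 271 CPM in high libraries and 164 to 246 CPM in low libraries (-0.24 ± 0.14, adjusted p = 0.335). Penk, the enkephalin precursor, had a fold change of -0.36 ± 0.15 (adjusted p = 0.178) and Ppp1r1b, the phosphatase inhibitor DARPP-32, one of -0.27 ± 0.13 (adjusted p = 0.269). The 2 libraries lowest in Drd1 and Penk were SCFA 5 and SCFA 2. Penk passed without Abx_SCFA 1 (-0.52, adjusted p = 0.0367). Gng7, a G protein subunit of striatal neurons, had a fold change of -0.41 ± 0.12 (adjusted p = 0.0509) and passed without Abx 3, Abx_SCFA 1 or Abx_SCFA 3 (-0.43, -0.52 and -0.42, adjusted p = 0.0362, 0.00894 and 0.0492). Gng7 passed in 7 of the 32 settings run. With continuous Slc17a7 over the 20 libraries 6 of the 32 genes were called lower, and 1 fell with Slc17a7 within the high libraries. Of all 12845 genes, 375 were lower and 11 fell in these fits. In rats numbered below 400, 24 of the 32 genes were negative and the median was -0.12, while from 400 it was 30 and -0.32. The list of D1 cells held 2 called genes of 12, Isl1 and Dlk1, both lower, where 1.04% of all genes were called lower. That of D2 cells held Grik3, a kainate receptor subunit, higher (0.37 ± 0.08, adjusted p = 0.0104), and Upb1 lower (-0.70 ± 0.20, adjusted p = 0.0430). The call of Upb1 ended without H2O 1, H2O 3, H2O 5, Abx 1, Abx 2, Abx 4, SCFA 1, SCFA 2, SCFA 3, SCFA 4, SCFA 5, SCFA 6 or Abx_SCFA 4 (-0.74 to -0.58, adjusted p from 0.0543 to 0.142).

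Glial and vascular genes gave few calls, and their signs differed between the number series. Of 26 myelin genes all 26 were negative over the 20 libraries, with a median of -0.33 and 0 called. The fold change was negative in 6937 of all 12845 genes. Mbp, a main myelin protein, was at 2869, 6349 and 10570 CPM in high libraries and at 5305, 7953 and 11380 CPM in low libraries (-0.29 ± 0.21, adjusted p = 0.453). In rats numbered below 400 the myelin list had 19 positive and 7 negative genes (median 0.08), and from 400 it had 0 positive and 26 negative genes (median -0.64). Microglial genes likewise were positive in 17 of 19 cases below 400 and in 1 of 19 from 400, and endothelial and mural genes in 23 of 25 and in 5 of 25. Over all 20 libraries, 0 of the 19 microglial, 25 vascular, 13 meningeal, 12 ependymal and 6 blood genes were called. Sox8, a glial lineage factor, was the called 1 of 12 precursor genes (-0.36 ± 0.08, adjusted p = 0.0109). Of 22 astrocyte genes 1 was called higher and 1 lower, and of 79 ribosomal protein genes 0. Beside 4.69% higher and 1.04% lower over all genes, counts of 1 are given as a description. Gfap, an astrocyte filament, and Aif1, a microglial protein, were not called (0.05 ± 0.13 and 0.07 ± 0.10, adjusted p = 0.857 and 0.764). Gfap differed by -0.27 ± 0.14 in rats numbered from 400 (adjusted p = 0.249), and in rats numbered below 400 it was called higher (0.54 ± 0.07, adjusted p = 0.0104). In that series H2O 5 is the only high H2O library and Abx 2 the only low Abx library. Gfap was at 862 CPM in H2O 5 against 565 to 629 CPM in the other H2O libraries. It was at 367 CPM in Abx 2 against 519 to 534 CPM in the other Abx libraries. Over the 20 libraries its sign changed without H2O 5 (-0.0913) or Abx 2 (-0.0435). The signs of the glial and vascular lists below 400 rest on the same classes. With log2 Mbp as a second covariate, 470 genes were higher and 119 lower.

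The difference between the number series was tested directly as an interaction. It was called for 14 genes (0.109%), among them Cx3cr1, the fractalkine receptor of microglia, Tie1, an endothelial receptor, Hip1r, an adaptor of endocytosis, and Zcchc12, a neuronal zinc finger gene. Cx3cr1 differed between high and low libraries by -0.26 ± 0.06 from 400 and by 0.35 ± 0.10 below 400, so that the difference of differences was -0.61 ± 0.11 (adjusted p = 0.0457). The count depends on single libraries: it was 0 without H2O 5, Abx 2, SCFA 1, SCFA 3, SCFA 4 or SCFA 6, left out in turn, 29 without Abx_SCFA 1 and 113 without Abx 3, and from 2 to 21 without each of the others.

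Among the high libraries alone, 144 genes (1.12%) changed with log2 Slc17a7, 133 (1.04%) upward and 11 (0.0856%) downward, in a fit with treatment as covariate over 11 libraries. Tbr1 rose by 0.80 ± 0.06 on the log2 scale per doubling of Slc17a7, Cck by 0.84 ± 0.08, Neurod2 by 1.04 ± 0.09 and Vip by 0.87 ± 0.11 (adjusted p = 0.00288). Vip was not called without SCFA 6 (0.81, adjusted p = 0.0502). Rtn4r rose by 1.30 ± 0.12 per doubling. The smallest p among falling genes belonged to Unc13c, which fell by 0.45 per doubling (SE 0.06, adjusted p = 0.00249), and Lrat, which esterifies retinol, also fell (-1.79 ± 0.31, adjusted p = 0.0183). Lrat was not called without Abx 3, SCFA 6 or Abx_SCFA 3 (-2.01, -1.80 and -1.67, adjusted p = 0.0936, 0.154 and 0.0550). Hes1 (0.33 ± 0.10, adjusted p = 0.208), Lhx8 (-0.32 ± 0.13, adjusted p = 0.352), Drd1 (-0.33 ± 0.12, adjusted p = 0.266) and Mbp (0.12 ± 0.31, adjusted p = 0.942) did not pass here. Drd1 passed without Abx_SCFA 4 (-0.48, adjusted p = 0.0201) and Hes1 without SCFA 5 (0.45, adjusted p = 0.0436). Single libraries moved both counts: 27 genes rose and 1 fell without SCFA 6, and 58 rose and 2 fell without Abx 3. The number falling was 63 without Abx_SCFA 4, 22 without Abx 4 and 19 without SCFA 5, 6 without Abx 1 or Abx_SCFA 2, and 7 without Abx_SCFA 3 or Abx_SCFA 5.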

How the data were processed

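RNA of the nucleus accumbens of 20 rats was sequenced from polyA RNA with a SMARTer cDNA kit, per the labels' protocols. The authors deposited 1 table of whole-number counts per gene symbol. Per the submitters' processing notes, the tools were STAR 2.4.0, FastQC 0.11.6 and limma, on Rnor_6.0. Which tool counted, with what annotation and strand setting, was not given in the sources used here. Overlapping, antisense and near-identical genes therefore cannot be separated with certainty. Groups come from the treatment labels, and the columns were matched to samples by rat number.

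CPM values are counts over the library total. In edgeR 4.0.16 (R 4.3.3), a robust quasi-likelihood fit with TMM scaling took treatment and class as terms over all 20 libraries (15 residual degrees of freedom). The filter filterByExpr, by treatment with a minimum count of 10 and a total of 15, left 12846 of 17296 symbols, 12845 without Slc17a7. Slc17a7 was removed before Benjamini-Hochberg adjustment. Standard errors were derived from the F statistic. The slope used log2(CPM + 1) of Slc17a7, with 6 residual degrees of freedom. Voom of limma 3.58.1 and DESeq2 1.42.0 served as alternatives. The scripts were tested on simulated counts. In 190 pairs of libraries the chi-square per gene was at least 6.57. A count of 0 allows up to 3 counts, 0.117 to 0.171 CPM per library, by counting error only, since the reads carry no molecular identifiers.

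The classes, the 32 gene lists and the tests were chosen with earlier results of these data known. Some lists share members, and a shared gene counts in each of its lists. The naming rule takes the 12 called genes with the smallest p in each direction with a mean of at least 1 CPM, in each list at most the 4 smallest p, and 32 set genes. Which of these are printed was decided after their values were seen, mostly for lists with called members, as were the ratios to Tbr1, the promoter motif, Slc5a7 and Decr1. Alternatives were another test, filter, covariate, threshold and set of libraries. The counts of slopes under the alternatives are given by direction, a split of the planned total made after the values were seen. Some genes that the naming rule selects are not reported here.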

Additional observations from a re-analysis of the deposited data

Results flagged for a closer look

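In 7 of 108 genes examined, 1 of the 9 low libraries lay far from the other 8 by the gap to its neighbour over the range of the class. Chance gives this in about 1 in 20 groups. Of the 7 values, 4 were in SCFA 3, the low library nearest the threshold: Hs3st2 at 12.9 CPM, Adamts2 at 2.73 CPM, Rspo2 at 1.21 CPM and Nrn1 at 13.8 CPM. The others were Cux2 at 34.8 CPM in Abx_SCFA 1, Tle4 at 239 CPM in H2O 2 and Tnc at 43.9 CPM in SCFA 1. The class of 11 high libraries was not examined in this way.

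For 14 genes the log2 difference between high and low libraries was not the same in both number series by the edgeR interaction test. The values, rats numbered from 400 minus rats numbered below 400, were 0.91 for Prr16, 0.73 for Zcchc12, 0.50 for Bpnt1, 2.93 for Spaca9, 0.51 for Tceal1, 0.44 for Eif1a and 0.69 for Nap1l5. They were -0.78 for Tie1, -0.61 for Cx3cr1, -0.62 for Map3k11, -0.62 for Hip1r, -1.07 for Zfp36l2, -0.65 for Caskin2 and -0.70 for Emid1. Adjusted p ran from 0.0182 to 0.0457 with edgeR. The series of rat numbers and the fatty acids cannot be told apart.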

How the results depend on the processing

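Against 603 genes higher and 133 lower, the counts were 642 and 153 with limma-voom, 629 and 100 without a filter and 470 and 119 with log2 Mbp as a covariate. They were 835 and 250 with DESeq2, 744 and 228 without the treatment covariate, 971 and 375 with continuous Slc17a7, 235 and 39 with high at 100 CPM or more, and 883 and 429 with high at 250 CPM or more. In rats numbered below 400 they were 79 and 19, from 400 322 and 143, and without SCFA replicates 2 and 5 they were 233 and 23, where fewer libraries entered. Leaving out each library gave 377 (without SCFA 3) to 815 (without Abx_SCFA 1) higher and 69 (without Abx 2) to 266 (without Abx_SCFA 1) lower genes. The lower count was 73, 71, 71, 76 and 80 without SCFA 1, 2, 3, 4 and 5, and the higher count was 392 without SCFA 1 and 395 without SCFA 4. Over these leave-outs the interaction called 0 to 113 genes, against 14 with all libraries and 13 with voom, while 27 to 147 genes rose with Slc17a7 within the high libraries and 1 to 63 fell, against 133 and 11 with all of them and 124 and 11 with voom. All 603 and 133 genes kept their sign in each of the 32 settings run. Each setting reuses libraries of the fit that selected these genes, so kept signs are no independent support.

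For 108 genes and 32 settings, 3095 of 3456 values kept sign and call, 28 gained the call, 27 changed sign and the others lost the call. Of 85 called genes, 67 kept the call in all 20 leave-outs. Signs changed for Camk2a (-0.0415 with log2 Mbp, -0.0422 in rats from 400, -0.0271 without SCFA 2 and 5, -0.0603 to 0.0745 over leave-outs), for Sst (-0.0019 with voom, -0.0252 continuous, -0.0504 at 250 CPM, -0.0243 with log2 Mbp, -0.20 in rats below 400, -0.0727 to 0.11 over leave-outs), for Mbp (0.19 in rats below 400), for Gfap (-0.0782 without covariate, -0.27 in rats from 400, -0.0913 to 0.19 over leave-outs) and for Aif1 (-1e-04 continuous). Among slopes, that of Mbp ran from -0.38 (without Abx 3) to 0.47 (without SCFA 5). The cause was not tested. None of these 5 genes was called with all 20 libraries. No paired analysis was possible because replicate numbers only name libraries and the labels pair none. Genes near 1 CPM, such as Cyp26a1, Rspo2 and Neurod1, rest on few counts in the low libraries and are the least precise.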
